A study of Mus musculus with 6 samples.

Results

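The 37 genes encoded by mitochondrial DNA were compared between MC3T3-E1 cells in osteogenic medium with metformin and the same cells in osteogenic medium alone. They are all the rows of the deposited table whose chromosome is MT, 37 of 54532 genes, and comprise 13 mRNAs, 2 rRNAs and 22 tRNAs. MC3T3-E1 is an established mouse pre-osteoblast line, labelled as osteoblasts, and metformin, a biguanide, is a common oral drug for type II diabetes. Both groups were kept in osteogenic medium, which contains β-glycerophosphate, ascorbic acid and dexamethasone, for 3 days. The osteogenic medium group received no metformin and the metformin group received 0.2 mM, with 3 samples each. The labels give neither dose nor time. The time and the biological replicates are taken from the study's methods and the dose from its description of the sequencing comparison. Whether each replicate was a separate passage or day is not given in the sources used here, so p-values measure the spread between these samples.

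Mitochondrial DNA is a small circle that is transcribed from both strands into long RNAs, which are then cut into mRNAs, rRNAs and tRNAs, with many cuts made at the tRNAs. The mRNAs encode core subunits of complexes I, III and IV of the respiratory chain and of complex V, the ATP synthase. The remaining subunits, and the factors that copy, transcribe and process mitochondrial nucleic acid, are encoded in the nucleus. In osteoblasts, as in other cells, these complexes carry out oxidative phosphorylation, and complex I has been described as a target of metformin.

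Of the 37 genes, 28 lie on the plus strand of the reference (12 mRNAs, 2 rRNAs and 14 tRNAs) and 9 on the minus strand (mt-Nd6 and 8 tRNAs). Neighbouring genes abut or overlap, which matters for reading their values, since a read in shared bases can be counted for either gene or for neither. All sequences here are from GENCODE M21 transcripts (GRCm38), written 5′ to 3′. The end of mt-Atp8 and the start of mt-Atp6, both complex V subunits, share the 43 bases in capitals (chrMT:7927-7969, plus strand, coding exons of both).
mt-Atp8: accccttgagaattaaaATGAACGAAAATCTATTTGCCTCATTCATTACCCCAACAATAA
mt-Atp6: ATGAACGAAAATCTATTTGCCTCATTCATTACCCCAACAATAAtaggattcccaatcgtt

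The end of mt-Nd4l and the start of mt-Nd4, both complex I subunits, share 7 bases (chrMT:10167-10173), in capitals.
mt-Nd4l: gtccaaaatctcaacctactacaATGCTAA
mt-Nd4: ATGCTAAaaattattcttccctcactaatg

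The 3′ ends of mt-Nd5, on the plus strand, and mt-Nd6, on the minus strand, cover the same 14 bases (chrMT:13552-13565) as reverse complements, in capitals. Whether the reads were counted by strand is not given in the sources used here, so reads of overlapping or antisense RNA cannot be told apart from those of the annotated gene.
mt-Nd5: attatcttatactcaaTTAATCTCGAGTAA
mt-Nd6: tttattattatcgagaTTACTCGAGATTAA

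In 3 of the 13 mRNAs the annotated length is no multiple of 3 and the last annotated base, in capitals, is the first base of a stop codon. As background, such codons are completed by the poly(A) tail. The ratio of highest to lowest sample in osteogenic medium was 1.34 for mt-Cytb, the smallest among the mRNAs. It was 1.53 for mt-Nd4 and 24.9 for mt-Co3, the largest. A link between these ends and the spread was not tested.
mt-Co3: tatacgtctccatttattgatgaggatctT
mt-Nd4: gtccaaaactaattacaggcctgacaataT
mt-Cytb: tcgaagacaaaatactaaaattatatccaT

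The reads recovered from the table numbered 18399861 to 20652437 per sample in osteogenic medium and 19256672 to 22111790 with metformin. All 11 osteoblast lineage markers were expressed, with a summed level of 11930 to 13995 FPKM in osteogenic medium and 8799 to 9283 FPKM with metformin. Single markers stood apart in both directions, given here as values without a test. Spp1 had 6565 to 8357 FPKM without and 2680 to 2727 with metformin, and Ibsp 664 to 964 and 260 to 269 FPKM. Runx2 was also lower, by less, at 28.6 to 34.1 FPKM without and 25.8 to 27.4 with metformin. Col1a1 had 927 to 1585 FPKM without and 2366 to 2576 with metformin, Col1a2 950 to 1002 and 1378 to 1524, Sp7 36.8 to 47.1 and 52.1 to 54.0, and Dlx5 13.2 to 26.4 and 39.9 to 40.7 FPKM. FPKM are reads scaled by gene length and by library size. The muscle factors Myod1 and Myog, the adipocyte gene Cidec and the T cell gene Cd3e were at 0 in every sample, and the 4 endothelial markers summed to at most 0.131 FPKM. Other markers of these and of chondrocytes were above 0 in both groups: the adipocyte gene Fabp4 had 1.65 to 2.95 FPKM without and 1.87 to 2.30 with metformin, the muscle gene Des 1.20 to 1.87 and 2.07 to 2.38, and the chondrocyte genes Sox9 and Col2a1 20.2 to 28.1 and 6.44 to 11.9 FPKM without and 19.9 to 21.7 and 8.35 to 9.70 with metformin. The 5 haematopoietic markers summed to 15.3 to 25.98 FPKM in osteogenic medium and 27.1 to 30.9 FPKM with metformin, nearly all of it Lyz2, with Ptprc at 0.0156 FPKM at most. Cd68 went the other way, at 1.96 to 2.15 FPKM without and 1.04 to 1.28 with metformin. The part of these markers in the results below was not tested. Replicate 1 in osteogenic medium stood apart. The Spearman correlation, across tested genes, between its deviation from the gene's mean and transcript GC content was -0.536, against 0.219 and 0.412 for the other samples of its group and -0.02 to 0.09 with metformin. The mitochondrial genes have a GC content of 17.1% to 44.9%, so results that rest on this sample are given with and without it.

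Mitochondrially encoded RNA took a smaller share of the reads with metformin. It made up 10.01%, 8.37% and 6.36% of all reads in the 3 osteogenic medium samples and 2.72%, 2.79% and 3.16% in the 3 metformin samples. All metformin samples were below all osteogenic medium samples. The means were 8.25% ± 1.83 and 2.89% ± 0.234 (SD, n = 3 each), a 2.85-fold lower share with metformin. The share was 2.55-fold lower without osteogenic medium replicate 1. With each library's trend on GC content removed, the shares were 8.09%, 8.62% and 6.94% in osteogenic medium. They were then 2.87%, 2.97% and 3.17% with metformin, and replicate 1 was no longer the highest sample. The 95% Wilson intervals of the uncorrected shares are at most 0.0137 percentage points to either side, which covers counting error only. In bulk RNA, fewer mitochondria, fewer mitochondrial DNA copies and less RNA per copy cannot be told apart, and a share of reads also depends on how much other RNA the cells hold.

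**Figure D1:**
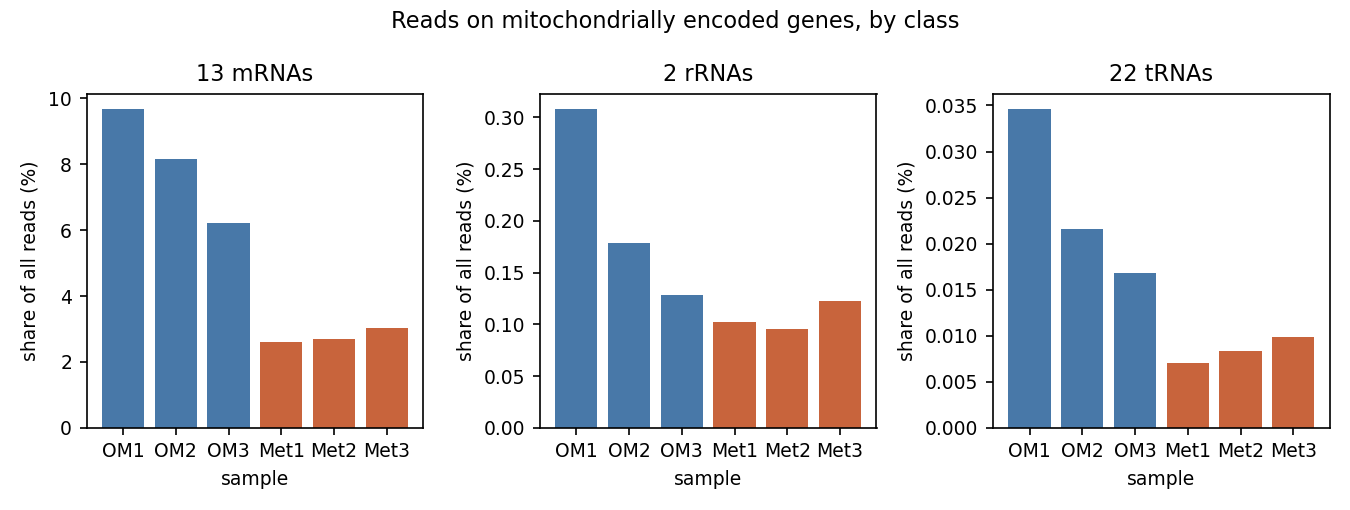
Bars give the share of all reads (%, vertical axes from 0, a separate scale for each class) on the 13 mRNAs, 2 rRNAs and 22 tRNAs in each osteogenic medium sample (OM1 to OM3, blue) and metformin sample (Met1 to Met3, orange). The mRNAs fell from 6.21% to 9.66% of reads to 2.61% to 3.02%, and the rRNA bars of the groups lie closest together, at 0.128% in OM3 against 0.122% in Met3.

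By class, the mRNAs held nearly all of the mitochondrial reads in both groups, 96.6% to 97.7% in osteogenic medium and 95.8% to 96.3% with metformin. The rRNAs held 2.01% to 3.07% of them in osteogenic medium and 3.42% to 3.87% with metformin, so the balance between the classes moved, with no overlap between groups. The share of the tRNAs among mitochondrial reads overlapped, at 0.258% to 0.346% and 0.260% to 0.312%. As shares of all reads, mRNA was 2.89-fold, tRNA 2.88-fold and rRNA 1.92-fold lower with metformin. These values were 2.59, 2.28 and 1.44 without osteogenic medium replicate 1. These sums were given no test.

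Gene by gene, 32 of the 37 genes had a mean FPKM of at least 0.5 and were tested by limma-trend on log2(FPKM + 1) in 1 fit with all 12681 genes that passed this filter. With metformin, 17 were lower and none was higher at an adjusted p-value under 0.05 (Benjamini-Hochberg over all tested genes). Over all tested genes, 9.28% were lower and 13.2% were higher by the same rule, and the median log2 fold change was 0.01. The 17 were 11 of the 13 mRNAs, 1 of the 2 rRNAs and 5 of the 22 tRNAs. The count of higher mitochondrial genes was also 0 at an unadjusted p-value under 0.05 and by voom. In 20 of the 37 every metformin sample was below every osteogenic medium sample, which holds for 20.5% of all tested genes. Without osteogenic medium replicate 1, 22 were lower, against 20.4% of all tested genes, and with each library's trend on GC content removed 19 were lower, against 19.2%. No gene was higher in either fit.

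**Figure D2:**
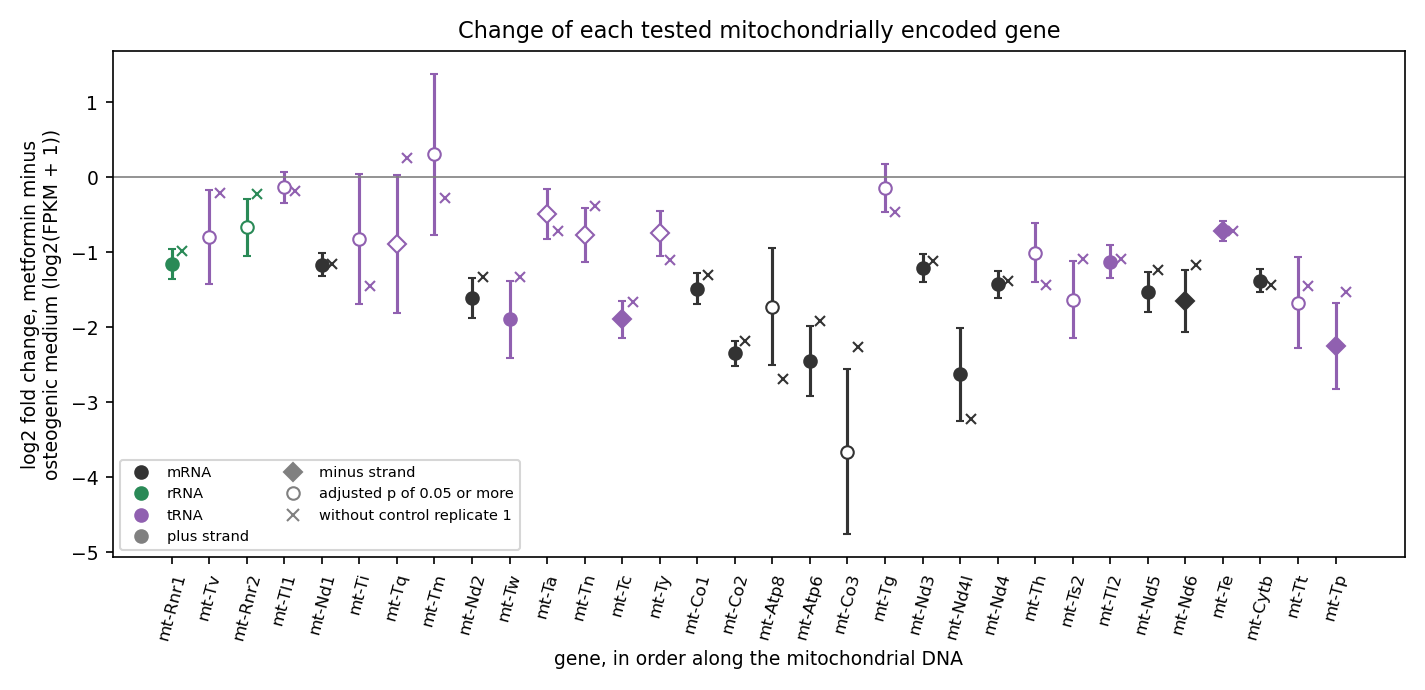
Points give the log2 fold change (metformin minus osteogenic medium, log2(FPKM + 1), vertical axis) with its SE for the 32 tested genes, in their order along the mitochondrial DNA; circles are plus strand and diamonds minus strand genes, open symbols have an adjusted p of 0.05 or more, and crosses leave out osteogenic medium replicate 1. The mRNAs (dark) lie between -3.66 and -1.17, while the tRNAs (purple) reach from -2.25 to 0.31.

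Among the mRNAs, the median log2 fold change of the 13 was -1.61 and the range -3.66 to -1.17. All 13 passed the filter. The fold between group means lay between 2.27 and 33.4. The highest is that of mt-Co3, which was not called, and was 5.14 without osteogenic medium replicate 1. The spread within osteogenic medium was wide, with a median ratio of highest to lowest sample of 2.02 over the 13 genes, against 1.28 with metformin.

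The 7 complex I mRNAs encode membrane subunits of NADH dehydrogenase, the entry point of electrons into the chain. All 7 were lower with metformin and in all 7 the groups did not overlap. mt-Nd1 had 5783, 6796 and 4818 FPKM in osteogenic medium and 2512, 2457 and 2709 FPKM with metformin. This was among the steadiest changes, 2.27-fold in the means, with a log2 fold change of -1.17 ± 0.15 (SE, adjusted p = 0.00246). mt-Nd2 had 8461, 5390 and 4000 FPKM without and 1808, 1745 and 2014 FPKM with metformin. Its highest sample was osteogenic medium replicate 1, and the log2 fold change was -1.61 ± 0.27 (adjusted p = 0.00663) with that sample and -1.33 without it. mt-Nd4 had 4036, 4529 and 2951 FPKM in osteogenic medium and 1362, 1317 and 1554 FPKM with metformin. Replicate 1 was not the highest here, and the change was -1.42 ± 0.18 (adjusted p = 0.00226).

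mt-Nd5 had 7062, 4215 and 3504 FPKM in osteogenic medium and 1447, 1621 and 1842 FPKM with metformin, a change of -1.53 ± 0.26 (adjusted p = 0.00799). This change was -1.24 without osteogenic medium replicate 1. mt-Nd3, a short mRNA between tRNA genes, had 71.1, 68.1 and 52.0 FPKM without and 20.9, 30.1 and 30.8 FPKM with metformin. It changed by -1.20 ± 0.19 (adjusted p = 0.00544), at a level far under those of the longer complex I mRNAs. mt-Nd3 and mt-Nd4l lie in a stretch that nuclear near-copies span, described below, and its part in their levels was not tested. mt-Nd4l had 48.3, 305 and 91.1 FPKM in osteogenic medium, where replicate 2 was the highest, and 13.1, 22.9 and 16.4 FPKM with metformin. The change of -2.63 ± 0.63 (adjusted p = 0.0262) was called in only 2 of 6 fits when samples were dropped in turn, and was -3.22 without osteogenic medium replicate 1. Within each sample mt-Nd4l stood at 0.0096 to 0.0672 times the FPKM of mt-Nd4, with which it shares the 7 bases printed above.

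mt-Nd6 is the only mRNA on the minus strand. It had 9542, 4250 and 2927 FPKM in osteogenic medium and 1399, 1507 and 1827 FPKM with metformin. The first of these values stood well above the others of its group, and the call rested on few samples: the change was -1.65 ± 0.41 (adjusted p = 0.0306), was called in 2 of 6 fits when samples were dropped in turn, and was -1.17 (adjusted p = 0.0041) without osteogenic medium replicate 1.

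mt-Cytb encodes cytochrome b, the subunit of complex III that comes from mitochondrial DNA. It had 9869, 12889 and 9604 FPKM in osteogenic medium and 3945, 3948 and 4466 FPKM with metformin. The groups were far apart beside their spread, and the change was 2.62-fold in the means and -1.38 ± 0.15 on the log2 scale (adjusted p = 0.00129), and it was called whichever sample was dropped.

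The 3 complex IV mRNAs encode the catalytic core of cytochrome c oxidase, which passes electrons to oxygen. mt-Co1 was rank 1 of all genes by mean FPKM, and mt-Cytb rank 2. mt-Co1 had 29746, 23968 and 17660 FPKM in osteogenic medium and 7825, 8370 and 8772 FPKM with metformin, so that 1 gene took 46.4% ± 0.708 of the mitochondrial mRNA reads in osteogenic medium and 46.3% ± 1.07 with metformin (SD, n = 3). It changed by -1.48 ± 0.20 (adjusted p = 0.00315). mt-Co2 had 298, 209 and 214 FPKM without and 41.1, 44.3 and 52.7 FPKM with metformin. The change was 5.22-fold in the means, with the smallest adjusted p-value of the mitochondrial genes (-2.35 ± 0.17, adjusted p = 0.000242).

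mt-Co3 was carried by 1 sample. It had 2442 FPKM in osteogenic medium replicate 1, 98.2 and 181 FPKM in replicates 2 and 3, and 26.2, 24.0 and 31.2 FPKM with metformin. The groups did not overlap, but the change of -3.66 ± 1.10 did not pass the threshold (adjusted p = 0.0572). Without replicate 1 it was -2.26 (adjusted p = 0.000824), and the fold between means went from 33.4 to 5.14.

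The complex V mRNAs were low and uneven. They lie in a stretch that nuclear near-copies span, described below, and its part in their levels was not tested. mt-Atp6 had 371, 155 and 98.8 FPKM in osteogenic medium and 25.8, 29.5 and 42.8 FPKM with metformin, a change of -2.45 ± 0.47 (adjusted p = 0.0116). It was called in 4 of 6 fits when samples were dropped in turn, with a highest adjusted p of 0.0527. The change of mt-Atp6 was -1.92 without osteogenic medium replicate 1. mt-Atp8 had 0.537, 10.8 and 9.98 FPKM without and 1.24, 0.225 and 1.01 FPKM with metformin, from 1 to 46 reads per sample. Here replicate 1 was the low sample of its group, the groups overlapped and the change was not called (-1.72 ± 0.78, adjusted p = 0.164). Without that sample it was -2.69 (adjusted p = 0.000419). At these counts mt-Atp8 is the least well measured of the mRNAs.

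**Figure D3:**
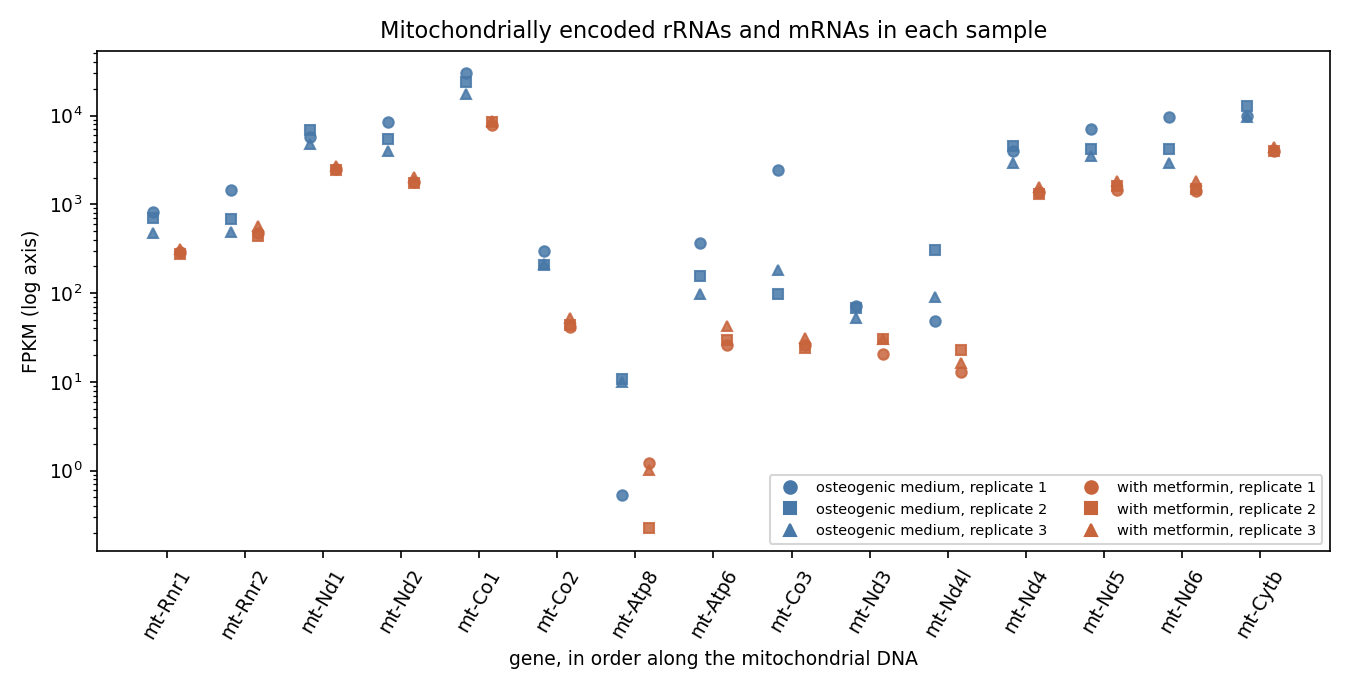
Each point is the FPKM of 1 sample (vertical log axis) for the 2 rRNAs and 13 mRNAs in gene order, blue for osteogenic medium and orange for metformin, with circles, squares and triangles for replicates 1, 2 and 3. The genes from mt-Co2 to mt-Nd4l form a low stretch, and osteogenic medium replicate 1 of mt-Co3, at 2442 FPKM, lies far above its group.

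mt-Co1, mt-Cytb, mt-Nd5, mt-Nd1, mt-Nd2, mt-Nd4 and mt-Nd6 were the 7 largest contributors to the mitochondrial mRNA reads in both groups. The other 6 mRNAs lie in a stretch that nuclear near-copies span, described below. How far reads assigned elsewhere or dropped lower their levels and shares was not tested. mt-Cytb made up 11.6% of these reads in osteogenic medium replicate 1, 18.3% and 18.5% in replicates 2 and 3, and 16.6% to 17.2% with metformin. mt-Nd6 made up 5.09% in osteogenic medium replicate 1, 2.74% and 2.56% in the other samples of the group, and 2.77% to 3.17% with metformin. In both genes the metformin samples lay near replicates 2 and 3, and replicate 1 was the sample that differed. In 4 genes the shares did not overlap between groups, a description without a test. mt-Nd1 made up 5.68%, 8.08% and 7.76% of the mitochondrial mRNA reads in osteogenic medium and 8.63% to 9.17% with metformin. The other 3 had smaller shares with metformin: mt-Co2 0.178% to 0.246% without and 0.107% to 0.121% with metformin, mt-Atp6 0.113% to 0.260% and 0.0669% to 0.0975%, and mt-Co3 0.0957% to 1.97% and 0.0690% to 0.0817%.

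The rRNAs form the mitochondrial ribosome, mt-Rnr1 in the small and mt-Rnr2 in the large subunit. mt-Rnr1 had 819, 703 and 480 FPKM in osteogenic medium and 290, 278 and 310 FPKM with metformin. The groups did not overlap and the change of -1.15 ± 0.20 was called in the main test (adjusted p = 0.00794) and whichever sample was dropped. mt-Rnr2 had 1465, 685 and 484 FPKM without and 471, 445 and 575 FPKM with metformin. Its groups overlapped, and it was not called (-0.67 ± 0.38, adjusted p = 0.261), nor without osteogenic medium replicate 1 (-0.22, adjusted p = 0.347). Both rRNAs were below the abundant mRNAs in FPKM. Whether the library kit selected polyadenylated RNA is not given in the sources used here, and such a selection would lower rRNA.

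Of the 22 tRNAs, 13 had a mean of at least 10 reads and 17 passed the filter. A tRNA of 59 to 75 bases is short beside a sequenced fragment, so the reads on it can also come from longer precursors or from neighbouring transcripts. The 8 minus strand tRNAs held 0.0205% ± 0.00844 of all reads in osteogenic medium and the 14 plus strand tRNAs 0.00379% ± 0.000793. With metformin these shares were 0.00633% ± 0.000938 and 0.0021% ± 0.000484 (SD, n = 3), with no overlap between the groups on either strand. The minus strand share was 3.24-fold and the plus strand share 1.80-fold lower. Without osteogenic medium replicate 1 these folds were 2.50 and 1.62. The 4 tRNAs that the results turn on most are printed with the anticodon in capitals: mt-Tc for cysteine (chrMT:5192-5257), mt-Tp for proline (chrMT:15356-15422) and mt-Te for glutamate (chrMT:14071-14139), all on the minus strand and called lower, and mt-Tl1, a leucine tRNA on the plus strand (chrMT:2676-2750) that was well measured and not called.
mt-Tc: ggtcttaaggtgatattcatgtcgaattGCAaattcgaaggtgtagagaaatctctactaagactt
mt-Tp: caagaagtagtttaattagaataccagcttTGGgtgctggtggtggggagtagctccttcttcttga
mt-Te: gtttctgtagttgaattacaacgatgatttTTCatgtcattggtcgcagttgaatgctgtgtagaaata
mt-Tl1: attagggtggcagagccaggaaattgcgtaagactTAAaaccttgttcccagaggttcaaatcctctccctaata

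mt-Tc had 1659, 1227 and 878 FPKM in osteogenic medium and 287, 308 and 390 FPKM with metformin. This was the largest change of a steady tRNA, 3.82-fold in the means and -1.89 ± 0.24 on the log2 scale (adjusted p = 0.00247), called whichever sample was dropped. mt-Tp had 2083 FPKM in osteogenic medium replicate 1, 522 and 427 FPKM in the others of its group, and 133, 168 and 191 FPKM with metformin. Its call (-2.25 ± 0.57, adjusted p = 0.033) held in 2 of the 6 fits with a sample dropped, and without replicate 1 the change was -1.54. mt-Te had 403, 456 and 355 FPKM without and 227, 239 and 270 FPKM with metformin, a smaller change of -0.72 ± 0.13 (adjusted p = 0.00909), called in 4 of the 6 fits with a highest adjusted p of 0.0550.

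mt-Tl1, next to mt-Rnr2 on the same strand, had 153, 209 and 135 FPKM in osteogenic medium and 118, 172 and 161 FPKM with metformin. The groups overlapped and the change was -0.13 ± 0.21 (adjusted p = 0.696), on 176 to 329 reads per sample. mt-Tg, for glycine, also overlapped, with 23.4 to 49.4 and 23.7 to 43.2 FPKM, and changed by -0.15 ± 0.32. Of the plus strand tRNAs, mt-Tl2 (-1.12 ± 0.22, adjusted p = 0.0128) and mt-Tw (-1.89 ± 0.52, adjusted p = 0.0417) were lower. With a sample dropped, mt-Tl2 was called in 5 of 6 fits and mt-Tw in 2 of 6. The change of mt-Tw was -1.33 without osteogenic medium replicate 1. The other 6 with a mean of at least 10 reads, mt-Ta, mt-Tn, mt-Ty, mt-Th, mt-Ts2 and mt-Tt, had log2 fold changes of -1.68 to -0.49 and were not called. Without osteogenic medium replicate 1, mt-Ty (-1.10), mt-Th (-1.44) and mt-Ts2 (-1.10) were also called lower. The 4 tested tRNAs with fewer reads, mt-Tv, mt-Ti, mt-Tq and mt-Tm, had 0 to 16 reads per sample and changed sign or size with the sample left out. mt-Tr had 1 read in metformin replicate 2 and 0 elsewhere. mt-Tf, mt-Ts1, mt-Td and mt-Tk had 0 reads in every sample, which allows a share of up to 1.63e-05% of the reads. This bound covers counting error only, not RNA that the library or the counting missed.

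By strand, 13 of the 24 tested plus strand genes and 4 of the 8 tested minus strand genes were lower, against 9.28% of all tested genes. The minus strand genes held 5.21%, 2.89% and 2.72% of the mitochondrial reads in osteogenic medium and 2.86%, 2.98% and 3.27% with metformin. The groups overlapped, and replicate 1 in osteogenic medium was the sample that stood out. The balance between mt-Nd6 and mt-Cytb, adjacent mRNAs on opposite strands, gave the same picture. Their ratio of FPKM was 0.967, 0.330 and 0.305 in osteogenic medium and 0.355, 0.382 and 0.409 with metformin. The log2 ratio differed by -0.27 between the group means, and by 0.27 in the other direction without replicate 1.

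In all, 7 pairs of mitochondrial genes were compared by their log2 ratio of FPKM within each sample, with a two-sided exact permutation test. With 3 samples against 3 the exact permutation test cannot go below p = 0.1, and no pair passed after Benjamini-Hochberg adjustment. In 2 pairs the groups did not overlap. mt-Rnr2 to mt-Co1 was 0.0493, 0.0286 and 0.0274 in osteogenic medium and 0.0602, 0.0531 and 0.0656 with metformin, a log2 difference of 0.81 between the groups (exact p = 0.1, adjusted p = 0.35). The rRNA thus stood higher beside the mRNA in every metformin sample. mt-Nd1 to mt-Nd2, complex I mRNAs on the same strand, was 0.684, 1.26 and 1.20 without and 1.39, 1.41 and 1.35 with metformin, a log2 difference of 0.45 (exact p = 0.1, adjusted p = 0.35). This difference was 0.16 without osteogenic medium replicate 1, whose ratio was the lowest. The ratio of the adjacent rRNAs, mt-Rnr1 to mt-Rnr2, was 0.559 to 1.03 and 0.539 to 0.625. Its groups overlapped, as did those of mt-Nd4l to mt-Nd4, mt-Atp8 to mt-Atp6 and mt-Atp6 to mt-Co3.

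Nuclear copies of mitochondrial DNA bear on these values, since reads that match both places can be assigned to either or dropped. Among annotated nuclear transcripts, 11 genes were at least 95% identical to a mitochondrial gene over at least 100 bases, and 7 were at least 99% identical. These 7 lie side by side on chromosome 1 (chr1:24611535-24616197, minus strand, unprocessed pseudogenes). Their matches run from mitochondrial base 6390 to base 11042, with bases between them that no annotated transcript matched. They are Gm29216 (mt-Co1), Gm28661 (mt-Co2), Gm10925 (mt-Atp6), Gm28437 (mt-Co3), Gm28438 (mt-Nd3), Gm10222 (mt-Nd4l) and Gm28439 (mt-Nd4). Gm28661, Gm10925, Gm28437, Gm10222 and Gm28439 are 100% identical to their match over 681, 678, 783, 294 and 876 bases. To show where the likeness begins, the first 60 bases of Gm29216 (chr1:24616138-24616197, minus strand) are printed under the same stretch of mt-Co1 (chrMT:6381-6440, plus strand, coding) and over that of Gm13340 (chr2:22588535-22588594, minus strand), a chromosome 2 copy of mt-Co1. Capitals mark the bases of a copy that differ from mt-Co1, and in mt-Co1 the positions at which either copy differs.
mt-Co1: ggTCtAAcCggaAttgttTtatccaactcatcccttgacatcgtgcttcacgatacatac
Gm29216: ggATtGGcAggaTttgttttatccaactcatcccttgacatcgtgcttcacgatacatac
Gm13340: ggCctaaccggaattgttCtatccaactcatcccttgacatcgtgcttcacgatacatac

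Counted from 1 at the left end, with the base of mt-Co1 first, Gm29216 differs by T3A, C4T, A6G, A7G, C9A and A13T and is then identical to mt-Co1 for the remaining 479 bases of its transcript. Gm13340 differs by T3C and T19C in this window and by 37 bases over all 1545. A read from the last 479 bases of either mt-Co1 or Gm29216 therefore holds no base that tells them apart.

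The nuclear copies moved with the mitochondrial genes. Together the 11 had 10552, 8908 and 6016 reads in osteogenic medium and 1920, 2001 and 2273 with metformin. That is 0.503 to 0.573 reads per 100 mitochondrial reads without and 0.324 to 0.374 with metformin. Of the 11, 10 were tested and 7 were lower (background 9.28%), none higher, and all 10 were lower without osteogenic medium replicate 1. The 5 with most reads were all lower, with log2 fold changes of -1.82 for Gm10925, -2.03 for Gm28661, -2.50 for Gm29216, -1.75 for Gm28437 and -1.95 for Gm28439. Gm28437 had 1721, 1144 and 799 reads in osteogenic medium and 357, 342 and 347 with metformin. Its identical match mt-Co3 had 34956, 1615 and 2782 reads without and 408, 410 and 476 with metformin, so the high value of replicate 1 in mt-Co3 was not shared by the copy. Summed with their copies, the same number of mitochondrial genes, 17, were lower.

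**Figure D4:**
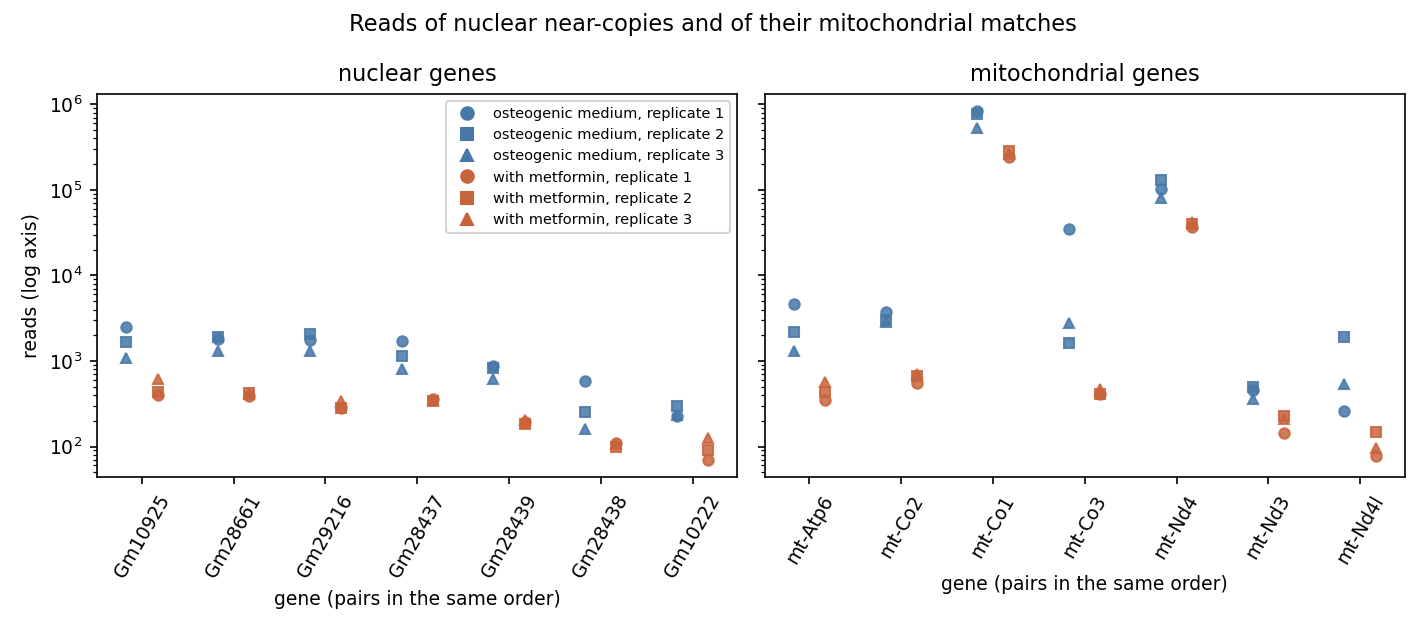
Points give reads per sample (vertical log axis, the same on both sides) for the 7 chromosome 1 genes at least 99% identical to a mitochondrial gene (left) and for the mitochondrial gene each matches (right), blue for osteogenic medium, orange for metformin, with circles, squares and triangles for replicates 1 to 3. mt-Co1 and mt-Nd4, of which 31.3% and 63.6% of the bases are matched, stand far above their copies. mt-Co2, at 558 to 3717 reads, is nearer to Gm28661, at 392 to 1900 reads, as is mt-Atp6, at 348 to 4617, to Gm10925, at 397 to 2475.

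Levels of the mitochondrial mRNAs differed with this interval. The 6 mRNAs that lie within it (mt-Co2, mt-Atp8, mt-Atp6, mt-Co3, mt-Nd3 and mt-Nd4l) had mean levels of 7.09 to 907 FPKM in osteogenic medium, and the 7 that lie outside or only partly inside had 3839 to 23792 FPKM. Of the 5 tRNAs within it 3 had 0 reads in every sample, and of the 17 others 1 had. mt-Atp8 and the 5 tRNAs within the interval had 0 bases matched by an annotated nuclear transcript. The rule was 95% identity over at least 100 bases, or 50 for tRNAs. How much of this difference in level comes from reads assigned elsewhere or dropped was not tested. The 6 mRNAs inside had a median log2 fold change of -2.40 and a range of -3.66 to -1.20, with 4 called lower. The 7 outside had a median of -1.48 and a range of -1.65 to -1.17, with all 7 called lower. The ranges overlap, and the difference was not tested.

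The nuclear genes for mitochondrial gene expression moved little beside the mitochondrial genes on the log2(FPKM + 1) scale. The added 1 makes the changes of weakly expressed genes too small, and many of these genes were weak. Polg2, for instance, had means of 1.57 FPKM without and 0.808 with metformin, and Dna2 0.461 and 2.26 FPKM. Of 54 genes listed for transcription, replication and nucleotide supply, RNA processing and nuclear regulation, 52 were tested, 7 were lower and 1 was higher, with a median log2 fold change of -0.11 against 0.01 over all tested genes. Beside the 9.28% of the background, the 7 of 52 are not read as a result about this list, since other settings gave 1 to 21.

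Among the 11 transcription genes, 3 were lower. Tfb2m, the factor that opens the promoter for the mitochondrial RNA polymerase, had 11.6, 9.91 and 9.43 FPKM in osteogenic medium and 7.66, 7.22 and 7.01 FPKM with metformin (log2 fold change -0.44 ± 0.10, adjusted p = 0.0199). The termination factor family members Mterf1b (-0.54) and Mterf4 (-0.33) were the others. When samples were dropped in turn, Tfb2m and Mterf1b were each called in 2 of 6 fits and Mterf4 in 1. The polymerase itself, Polrmt, had 8.69, 10.8 and 12.1 FPKM without and 8.35, 7.95 and 7.40 FPKM with metformin. Its groups did not overlap, and the change of -0.37 ± 0.13 was not called (adjusted p = 0.0849), but it was called without osteogenic medium replicate 1 (-0.49, adjusted p = 0.00345). Tfam, which packages mitochondrial DNA and helps to start transcription, changed by -0.17 and was not called.

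Among the 13 replication and nucleotide genes, 4 were lower and 1 was higher. Twnk, the replicative helicase, had 11.2, 10.5 and 12.6 FPKM in osteogenic medium and 7.12, 6.88 and 7.73 FPKM with metformin (-0.59 ± 0.09, adjusted p = 0.00574), and was called whichever sample was dropped. Polg2, the accessory subunit of the DNA polymerase (-0.51), Mgme1, an exonuclease (-0.36), and Dguok, a deoxyguanosine kinase (-0.37), were also lower, but were called in 2, 1 and 1 of the 6 fits with a sample dropped. Dna2, a nuclease and helicase that acts in the nucleus as well, rose from 0.447, 0.511 and 0.424 FPKM to 2.49, 2.03 and 2.25 FPKM (1.15 ± 0.10, adjusted p = 0.000415), and was called in all 6 such fits. None of the 21 tested RNA processing and stability genes was called in either direction by limma-trend (1 higher and 2 lower at an unadjusted p-value under 0.05, and 1 lower by voom). Of these 21 genes, 2 were higher and 4 lower without osteogenic medium replicate 1, and 7 were lower with the GC trend removed. Over all 12681 tested genes, 2969 were higher and 20.4% lower without that sample. With the GC trend removed, 19.2% of all tested genes were lower. None of the 7 tested nuclear regulators was called by limma-trend or voom (1 higher by limma-trend at an unadjusted p-value under 0.05), and Ppargc1a, at a mean of 0.0327 FPKM in osteogenic medium and 0.0223 with metformin, was under the filter. Without osteogenic medium replicate 1, the regulators Gabpa (adjusted p = 0.0354) and Gabpb1 (adjusted p = 0.0111) were higher, and with the GC trend removed 1 regulator was lower.

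The nuclear partners of the mitochondrial subunits showed no shift of comparable size. Of 82 listed subunits of complexes I to V, 79 were tested, 2 were lower and none higher by limma-trend and by voom (4 higher at an unadjusted p-value under 0.05 by limma-trend), with a median log2 fold change of 0.08 and a range of -0.45 to 0.80. Over all tested genes, 9.28% were lower and 13.2% higher by limma-trend. The 2 lower subunits were Ndufs7 of complex I (-0.31 ± 0.08, adjusted p = 0.0392) and Uqcr10 of complex III (-0.39 ± 0.09, adjusted p = 0.0203). They were called in 1 and 2 of the 6 fits with a sample dropped, and with the replicate block 0 subunits were lower. The medians were 0.04 for the 36 nuclear subunits of complex I, 0.11 for the 4 of complex II, which has no mitochondrially encoded subunit, -0.03 for the 9 of complex III, 0.09 for the 13 tested of complex IV and 0.20 for the 17 of complex V. The mitochondrially encoded mRNAs of the same complexes changed by -2.63 to -1.17 in complex I, -1.38 in complex III, -3.66 to -1.48 in complex IV and -2.45 to -1.72 in complex V. In each complex with both kinds of subunit, every mitochondrially encoded value was below every nuclear one.

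**Figure D5:**
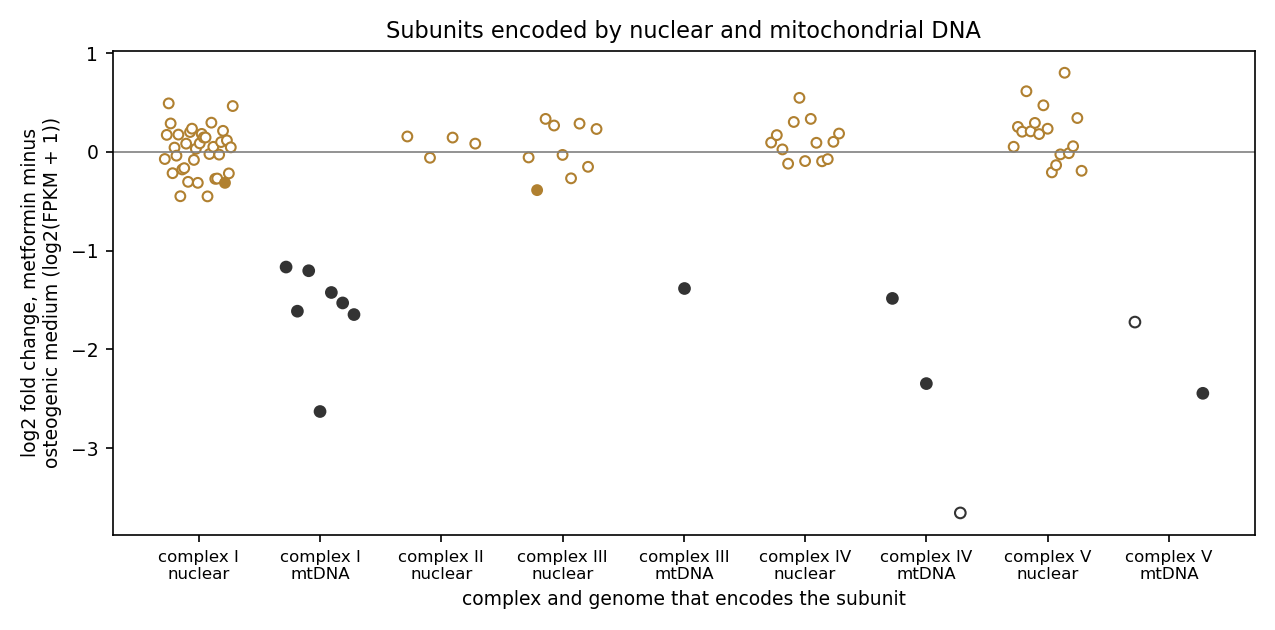
Each point is the log2 fold change of 1 subunit gene (metformin minus osteogenic medium, log2(FPKM + 1), vertical axis), grouped by complex and by the genome that encodes it; filled points have an adjusted p under 0.05, and the position of a point within its group has no meaning. Nuclear subunits (brown) lie between -0.45 and 0.80, and mitochondrially encoded ones (dark) between -3.66 and -1.17.

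In the fit without osteogenic medium replicate 1, 13 of the 79 tested nuclear subunits were higher and 9 lower, and the median was 0.04. Of the higher ones, 7 were complex V subunits. Over all 12681 tested genes, 2969 were higher and 2590, or 20.4%, lower in that fit. The subunit counts are therefore not read as a result about this list. The median of the 13 mitochondrial mRNAs in that fit was -1.38, and all 13 were lower.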

How the data were processed

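RNA of 3 samples per group was extracted with Trizol and made into libraries with the Illumina TruSeq RNA Sample Prep Kit. The authors deposited 1 table of values per gene and sample, identified as FPKM from the values: multiplied by the deposited gene length, 100% of the values above 0 were whole numbers of reads once divided by a per-sample unit (tolerance 0.1). The submitters' processing notes name Bowtie 0.12.2 and the builds mm8 and mm9, but the coordinates of all 37 mitochondrial genes are those of GENCODE M21 (GRCm38). The counting tool and strand setting are not given in the sources used here. The 6 columns were matched to samples by their labels, and 0 other columns of per-sample values remained. The authors used DESeq2. Since FPKM were deposited, the groups were compared with limma 3.58.1 (R 4.3.3), with an intensity trend, on log2(FPKM + 1). The fit held the 12681 genes whose FPKM averaged 0.5 or more, with a threshold of 0.05 after Benjamini-Hochberg adjustment over all of them. The pseudocount makes the fold changes of weakly expressed genes too small. Nuclear near-copies were found with BLAST+ 2.17.0 among annotated transcripts only. Log2 ratios within samples used FPKM. Members with a mean of at least 10 reads are named with values, and of the other lists the called genes, at most 8 a list, and the 5 near-copies with most reads. Polrmt, Tfam and Ppargc1a are named besides, as is the count of each list. The members, lists and tests were chosen with earlier results of these data known. The fit was tested on simulated reads with the same dispersion for all genes, no GC trend and no outlying sample. Since the osteogenic medium group differs in these points, that test does not bear on the calls made here. Alternatives were another pseudocount, other filters and scalings, voom on the recovered reads, the replicate block, a GC correction (spline with 5 degrees of freedom), sums with the nuclear copies and leaving out each sample. Leaving out osteogenic medium replicate 1 together with voom or the GC correction was added after the data were seen. Figures were drawn with matplotlib 3.10.9.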

Additional observations from a re-analysis of the deposited data

How the results depend on the processing

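Counts are of genes called by limma unless another test is named. Of the 37 mitochondrial genes 17 were lower, and 11 to 22 were lower when each sample was left out in turn, 22 without osteogenic medium replicate 1 and 11 without metformin replicate 1 or 2. The mRNAs called lower ranged from 8 to 13 and the tRNAs from 2 to 8 in these fits. No mitochondrial gene was called higher in any fit run. Without a filter on low values, 7 mitochondrial genes were lower, of them 3 mRNAs and 3 tRNAs, and the cause was not tested. The count stayed at 16 to 19 with a pseudocount of 0.1, at least 10 reads in every sample, both other scalings, voom, the replicate block, the GC correction and the sums with nuclear copies. Without osteogenic medium replicate 1, 8 tRNAs were lower with voom and 8 with the GC correction.

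The lists of nuclear genes were less stable. Lower nuclear factors numbered 7, and 3 without the filter, 13 with scaling by nuclear reads, 2 with the replicate block, 19 with the GC correction and 12 with both. They ranged from 1 to 14 with a sample left out, and were 13 with voom and 21 with the GC correction without osteogenic medium replicate 1. Lower nuclear subunits numbered 2, and 4 with scaling by total reads, 5 by nuclear reads, 0 with the replicate block, 6 with the GC correction and 4 with both. They ranged from 0 to 9 with a sample left out, and were 11 and 8 in the same pair of fits. Higher factors (1) became 2 with at least 10 reads in every sample, 1 to 5 with a sample left out and 6 with voom without osteogenic medium replicate 1. Higher subunits (0) became 1 with at least 10 reads in every sample, 4 with the GC correction, 1 with the block and the correction, 0 to 13 with a sample left out, and 14 and 10 in the pair of fits. The near-copies called lower (7) were 6 to 10 with a sample left out.

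Over all tested genes, lower calls (1177) became 1859 with scaling by nuclear reads, 698 with the replicate block, 2433 with the GC correction and 1888 with both. They were 495 to 2590 with a sample left out. Higher calls (1670) were 938 to 2969. Without osteogenic medium replicate 1, voom gave 3224 higher and 2877 lower, and the GC correction 2701 and 3108. The GC correction moved the share of higher among all calls, with 2062 higher beside the 2433 lower.

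The signs of 4 tRNAs turned. With a sample left out, mt-Tl1 changed by -0.27 to 0.048 on the log2 scale, mt-Tq by -1.47 to 0.26, mt-Tm by -0.80 to 1.08 and mt-Tg by -0.46 to 0.083. Without osteogenic medium replicate 1, mt-Tq was 0.51 with voom and 0.24 with the GC correction, and mt-Tm -0.68 and -0.41. mt-Tg was 0.16 with the GC correction, with or without the block. The difference in the log2 ratio of mt-Nd6 to mt-Cytb ranged from -0.57 to 0.27. That of mt-Atp8 to mt-Atp6 ranged from -2.03 to 1.03, and was 0.056 with the GC correction. The share of reads on mitochondrial genes was 4.48 to 6.30 percentage points lower in each of these fits.

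The labels give the same replicate numbers to both groups, but the correlations of same-numbered deviations from the group means were -0.0533, 0.00027 and -0.0549 over genes, so the numbers were not taken to pair the samples. With the replicate block, 17 mitochondrial genes were lower. What depth limits most is mt-Atp8 and the tRNAs with few reads.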
